A study of Nothobranchius furzeri with 20 samples.

Results

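Ageing of the brain was followed in vehicle-treated turquoise killifish (Nothobranchius furzeri), males of strain MZM-04/10p. The members were chosen by their age and perturbation labels: 5 libraries of fish aged 27 weeks given DMSO and 5 of fish aged 9 weeks given DMSO, 10 of the 20 libraries of the series. The other 10 libraries came from fish of the same 2 ages given rotenone, a blocker of mitochondrial complex I, dosed at 1% of its median lethal concentration (LC50). All libraries shared strain, sex and tissue. DMSO, a solvent, served as the control treatment at both ages, so that no untreated brain stands beside these libraries. How long it was given is not stated in the sources used here. Whether each library stands for its own fish is not in the labels, and p-values cover only variation among these libraries, which may in part be technical.

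The turquoise killifish is an annual fish of seasonal ponds that matures and ages within months, and for that reason serves as a vertebrate model of ageing. Ageing of vertebrate brains is known for gradual shifts in the level of many transcripts rather than for the switching of a few genes. A shift related to transcript length and a growing difference between individuals have both been described in ageing tissues, with directions that vary between studies. Bulk brain RNA sums over neurons, glia and blood vessels, so a lower level can mean fewer cells of a type or less RNA per cell, and these cannot be told apart here.

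Library totals were similar at both ages, from 21217905 to 23713285 counts at 27 weeks and from 21155551 to 24045080 counts at 9 weeks. Genes are listed by numbered Nfu_g_1 identifiers without names. Of the 26739 identifiers 0 matched the RefSeq gene table used here, so brain markers and pathway lists were not looked up, and the tissue label was not checked against markers. Of 22787 genes with a count in the DMSO libraries, 18881 had over 3 counts in each of the 10 libraries. Enough counts for a test were present for 19452 genes. The labels name no batches, and one that coincided with age cannot be told apart from it.

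The ageing change touched many genes, most of them by a small fold. At 27 weeks 1876 genes were higher than at 9 weeks (9.64% of those tested) and 2694 were lower (13.8%), together 23.5% (edgeR quasi-likelihood test, Benjamini-Hochberg adjusted p below 0.05). The excess of falls was smaller under other scalings, with 2149 genes higher and 2263 lower with library totals, and 2078 higher and 2370 lower with DESeq2 size factors. These calls take their error from all 20 libraries, and with the 10 DMSO libraries fitted alone 1122 genes were called higher and 1934 lower. Of the 4570 genes, 3402 had moved by less than 1.5-fold. Changes from 1.5 to 2-fold were seen for 724 genes, from 2 to 4-fold for 339 and over 4-fold for 105. In all, 90.3% of called genes had changed by less than 2-fold. Over all expression levels together falls were shallower than rises: 2265 of the 2694 genes that fell had moved by less than 1.5-fold, as had 1137 of the 1876 that rose. Falls were more often of strongly expressed genes, where smaller changes could be called. In the lowest and in the top decile of level the median sizes of called rises and falls were close, as given below. Between them rises were larger. In tertiles of level, from low to high, the median log2 change was 0.87, 0.42 and 0.32 for called rises. For called falls it was -0.82, -0.34 and -0.27. Whether level accounts for the shallower falls was not tested.

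The loss and the gain were each spread over many genes. Genes called lower summed to 186929 CPM (counts scaled to a common library total) at 27 weeks, against 234333 CPM at 9 weeks. Genes called higher summed to 91330 CPM at 27 weeks, against 70080 CPM at 9 weeks. These sums were taken with TMM scaling alone. Since the excess of called falls was smaller under other scalings, they show no net loss of expression. The 10 genes with the largest shifts held 11.8% of the summed loss and 10.9% of the summed gain. It took 255 genes to reach 50% of the loss and 197 genes to reach 50% of the gain.

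The direction of the calls differed between weakly and strongly expressed genes. Tested genes were ordered by their mean log2 CPM over all 20 libraries and parted into 10 equal bins. Genes are not independent replicates, so counts of genes carry no error of their own. In the lowest decile, with a median of 0.663 CPM, 115 genes rose and 68 fell. In the ninth decile, with a median of 84.1 CPM, 189 rose and 476 fell. The top decile, with a median of 191 CPM, held 139 genes that rose and 426 that fell. Rises outnumbered falls in deciles 1 to 4, and falls outnumbered rises in deciles 5 to 10. With library totals in place of TMM scaling, rises also outnumbered falls in decile 5, by 241 to 198. The median log2 change of all genes in a decile, called or not, went down steadily from 0.14 in the lowest to -0.05 in the ninth, and stood at -0.04 in the top decile. With library totals these medians were 0.16, -0.02 and -0.02, and the medians of deciles 6 and 7 turned from -0.00 and -0.02 to 0.02 and 0.01.

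**Figure D1:**
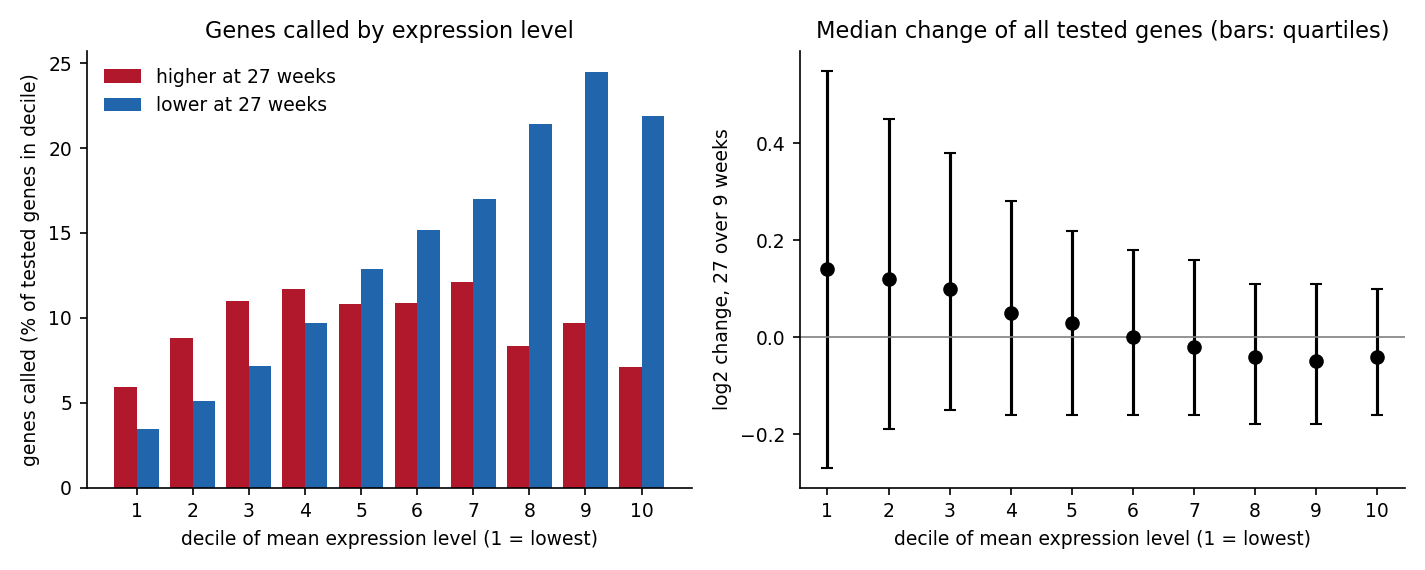
Left, percent of tested genes called higher or lower at 27 weeks in DMSO fish, by decile of mean expression level. Right, median log2 change (27 over 9 weeks) of all tested genes in each decile, with bars from the lower to the upper quartile. Calls lower rise from 3.49% in decile 1 to 24.5% in decile 9, while calls higher stay between 5.91% and 12.1%.

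Precision and the size of change both varied with level. The standard deviation (SD) between libraries on the log2 scale had a median of 0.530 at 27 weeks and 0.507 at 9 weeks in the lowest decile, and of 0.125 and 0.114 in the top decile. The median absolute difference between the ages was 0.369 in the lowest decile, beside a median standard error of 0.350. In the top decile it was 0.134, beside a median standard error of 0.0784. Only large changes could be called among weakly expressed genes: the median log2 change of called genes was 1.51 for rises and -1.48 for falls in the lowest decile, and 0.27 and -0.26 in the top decile. After the error variance was taken off, the root mean square of true log2 differences was estimated at 0.439 in the lowest decile and 0.186 in the top. Values in between fell in order. It is taken about 0, so it includes the shift of a decile as a whole, and it is given without an error. By these estimates strongly expressed genes had both a smaller size of change and a smaller error.

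The level dependence could be read in single libraries. For each library the median deviation of weakly expressed genes (lowest tertile) minus that of strongly expressed genes (highest tertile) was taken, a difference from which the scaling of the library drops out but for the small prior count. This level tilt was 0.0891, 0.0789, 0.0972, -0.000219 and 0.0538 on the log2 scale in replicates 1 to 5 of 27 weeks, and 0.0150, -0.0385, -0.170, -0.0169 and -0.103 in replicates 1 to 5 of 9 weeks. The older brains leaned to weakly expressed genes and the younger ones to strongly expressed genes, with overlap through replicate 4 of 27 weeks and replicate 1 of 9 weeks. The means differed by 0.126 (0.0638 ± 0.0393 at 27 weeks and -0.0627 ± 0.0739 at 9 weeks; SD, n = 5 each; exact two-sided permutation test, p = 0.0159). Adjusted over the 6 library measures tested, the p was 0.0952 and did not pass (exact permutation test). Taken within tertiles of gene length the difference was 0.142, and with level per kilobase 0.165 (exact permutation p = 0.0159 for each). In rotenone fish the level tilt differed between the ages by 0.0761 (exact permutation p = 0.0397), and the age effects of the 2 treatments differed by 0.0504 (exact permutation p = 0.2951). The excess of rises among weakly expressed genes was not seen in rotenone calls, where falls outnumbered rises in every decile. Rotenone rises and falls numbered 95 and 117 in the lowest decile and 309 and 441 in the top. The median log2 changes of all genes there were 0.06 and 0.00.

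Gene length showed less of a tilt across all genes than among genes of middle level, though not less than among weakly expressed genes. Lengths were recovered from the ratio of deposited counts to deposited RPKM, and among tested genes had a median of 2669.2 bases. Calls by length decile leaned to falls among short genes, with 123 rises and 265 falls in the shortest decile (median 468 bases). They leaned to rises in the longest decile, with 225 rises and 171 falls (median 8686 bases). The median log2 change was -0.03 in the shortest decile and 0.05 in the longest, and between -0.01 and 0.03 in all others. With library totals these 2 medians were 0.00 and 0.08, and the others lay between 0.01 and 0.05.

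Of the 6484 longest genes 3526 were in the highest tertile of level, where falls prevailed, so the 2 properties were crossed. In the middle tertile of level, the shortest genes held 159 rises and 409 falls among 2307 tested, and the longest held 305 rises and 154 falls among 1804. In the highest tertile of level 319 of the 1095 shortest genes fell and 77 rose, against 619 and 362 of the 3526 longest. In the lowest tertile falls stood at 5.52%, 5.74% and 5.72% from short to long genes, and rises at 7.46%, 10.5% and 10.1%. The median log2 change ran from -0.04 to 0.09 with length in the middle tertile and from -0.09 to -0.01 in the highest.

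The length tilt of a library, the median deviation of the longest tertile of genes minus that of the shortest, did not part the ages. It was -0.00948, 0.0557, 0.0448, -0.0483 and 0.0616 in replicates 1 to 5 of 27 weeks, and 0.00974, -0.0589, -0.0432, -0.0658 and 0.0208 in replicates 1 to 5 of 9 weeks. Within each age the libraries ranged over more than the difference of the means, which was 0.0483 (exact permutation p = 0.1349; adjusted over the 6 measures, 0.4048). Averaged within tertiles of level the difference was 0.0793 (exact permutation p = 0.0317). It was 0.135 among genes of middle level (0.0645 ± 0.0525 at 27 weeks and -0.0704 ± 0.0443 at 9 weeks; SD, n = 5 each), with p = 0.0159, or 0.0476 adjusted over the 3 levels (exact permutation test). Among weakly and strongly expressed genes the differences were 0.0323 and 0.0707 (exact permutation p = 0.1984 and 0.1429). The single levels were looked at after the data had been seen. The adjustment over 3 levels covers neither that choice nor the 6 measures, so the middle level is a description. Replicate 4 of 27 weeks, at -0.0232, was the 1 older library below 0 at middle level, and replicate 1 of 9 weeks, at -0.00337, was the nearest younger one. Without replicate 4 of 27 weeks, the older library with the lowest tilt, the length tilt over all levels differed by 0.0651 (exact permutation p = 0.0476). Leaving out the lowest older library must widen the difference. Leaving out any other single library gave exact permutation p from 0.1032 to 0.2460. In rotenone fish the length tilt over all levels differed by 0.0645 between the ages, whose libraries did not overlap (exact permutation p = 0.0079), and by 0.119 and 0.108 at middle and high level. The age effects on length tilt of DMSO and rotenone fish differed by -0.0161 (exact permutation p = 0.6063). No measure of RNA quality is given in the sources used here, and its part in differences by gene length was not tested.

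**Figure D2:**
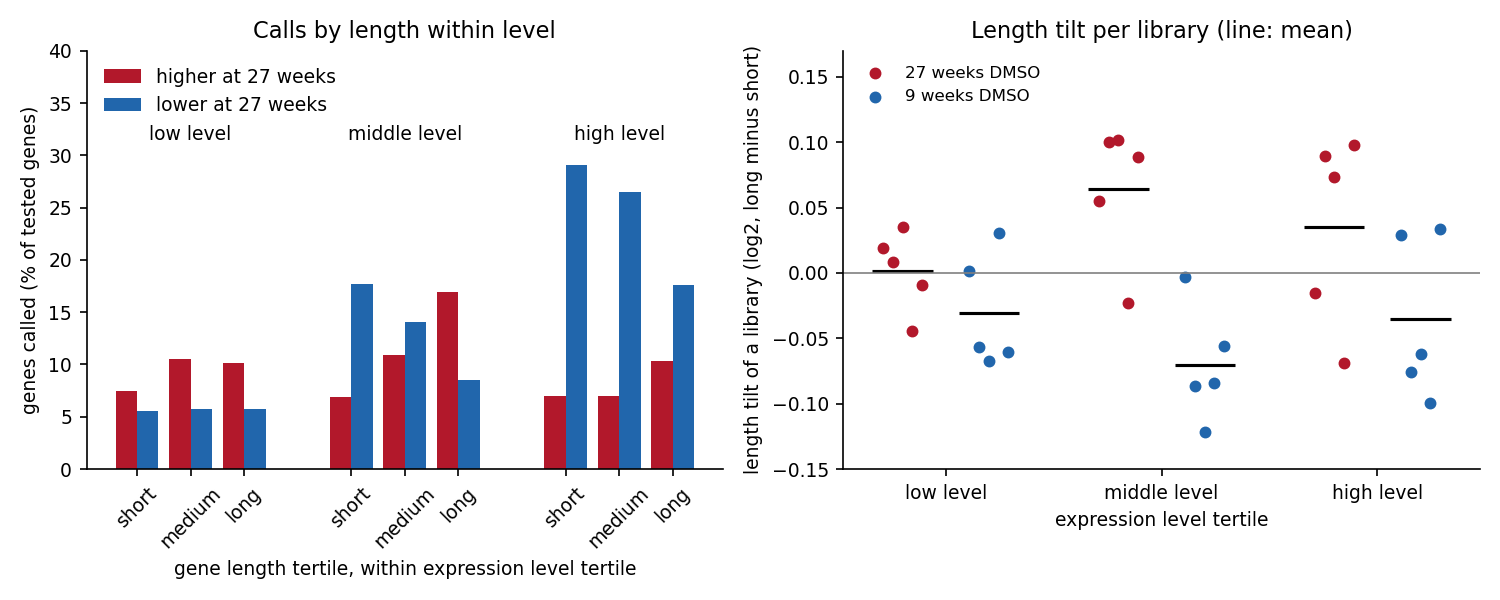
Left, percent of tested genes called higher or lower at 27 weeks in DMSO fish, for short, medium and long genes within tertiles of expression level. Right, length tilt (log2) of each DMSO library within those level tertiles, 27 weeks in red and 9 weeks in blue, with the mean as a line. At middle level the means stand at 0.0645 and -0.0704, and the libraries overlap through replicate 4 of 27 weeks.

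Other measures of the make-up of a library did not part the ages. Genes with at least 1 count numbered 21578 ± 84.9 at 27 weeks and 21514 ± 91.0 at 9 weeks (SD, n = 5 each; exact permutation p = 0.2302, adjusted 0.4603). Replicate 4 of 27 weeks had 21427 and the other 4 libraries of its age 21600 to 21628, so that without it the difference was 101 genes (exact permutation p = 0.0317). Leaving out the lowest older library must widen the difference, and leaving out any other single library gave exact permutation p from 0.2143 to 0.5159. The 100 most abundant genes of a library held 14.0% ± 0.704 of counts at 27 weeks and 14.2% ± 0.897 at 9 weeks (exact permutation p = 0.5794). The mean length of the gene behind a count was 4762.9 ± 153 bases at 27 weeks and 4694.3 ± 117 bases at 9 weeks (exact permutation p = 0.3889).

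Ageing was graded, with next to no gene switched on or off. Of the 4570 called genes 4495 had over 3 counts in all 10 libraries, 1833 of those that rose and 2662 of those that fell. Over all genes 18881 had such counts, beside 19452 genes tested. The filter on low counts favours such genes, so this is a description and not a trait particular to called genes. A gene was counted as on/off when it had at most 3 counts in every library of one age, over 3 in every library of the other, and a median of at least 1 CPM there. This held for 1 gene that was on at 27 weeks and 0 genes that were on at 9 weeks, 0.00439% of the 22787 genes with a count. The 3 counts that served as the limit correspond to 0.142 CPM in the smallest DMSO library, so genes below that level could not be judged. In rotenone fish 0 genes met the same definition in either direction. With the limit at 0 counts the number in DMSO was 0, and with a median of at least 0.5 CPM it was 2. With the limit at 10 counts it was 1, a gene other than the one named below, which had 7 counts in 1 older library.

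Silence at one age was mostly broken in single libraries of the other. Of the genes with at most 3 counts in all 9-week libraries, 345 exceeded 3 counts in at least 1 library of 27 weeks, but 212 of these did so in 1 library alone and 7 in all 5. In the other direction 283 genes were silent in all 27-week libraries and exceeded 3 counts in at least 1 library of 9 weeks, 189 of them in 1 library alone and 4 in all 5. Nearly all of these genes fell below the count filter. Of the 345 genes 3 were tested and 2 called higher, and of the 283 genes 5 were tested and 4 called lower. Genes that pass the filter through 1 age alone had to differ, so these counts are a description, beside 9.64% higher and 13.8% lower among all tested genes.

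At the limit of 3 counts the single on/off gene was Nfu_g_1_012517, of unknown function here. It stood at 8.81, 8.11, 9.85, 8.49 and 0.296 CPM in replicates 1 to 5 of 27 weeks, and at 0.0428, 0.0475, 0.0870, 0.136 and 0 CPM in replicates 1 to 5 of 9 weeks. In 4 of the older brains it lay near a common level and the fifth, with 7 counts, was close to the younger ones, which held 0 to 3 counts. The fitted log2 change was 6.72 ± 1.77 (SE; edgeR adjusted p = 0.0107), a value that rests on counts near 0 at 9 weeks. The age pattern was not seen in rotenone fish, where 2 libraries of 27 weeks and 3 of 9 weeks exceeded 6 CPM and the other 5 stayed at or below 0.188 CPM. In rotenone fish, where 31.1% of tested genes were called between the ages, its log2 change was 0.20 ± 1.14 (SE; edgeR adjusted p = 0.910), and the difference between the treatments, 6.52, did not pass (edgeR adjusted p = 0.309; 0.0206% of tested genes passed that test).

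In 2655 genes, 13.6% of those tested, the libraries of 27 weeks did not overlap those of 9 weeks, with 978 genes higher (5.03%) and 1677 lower (8.62%) at 27 weeks. Of these 1975 had changed by less than 1.5-fold and 2438 by less than 2-fold. Over 3 counts in all 10 libraries were present for 2626 of them, and for 18881 genes in all, beside 19452 tested. Among the called genes 2501 lay apart in this way, 908 that rose and 1593 that fell. Genes apart made up 4.37% of the lowest level decile and 20.9% of the ninth. A total of 2850 genes, 1033 that rose and 1817 that fell, were called in the fit with all libraries and in each of the 10 fits without 1 DMSO library.

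The strongest graded fall among these was that of Nfu_g_1_021098. It had 172, 233, 228, 171 and 379 counts in replicates 1 to 5 of 27 weeks, and 657, 966, 980, 1196 and 776 counts in replicates 1 to 5 of 9 weeks. All older brains lay below all younger ones in CPM, as the choice of the gene required, and also in counts. None was near silence. The mean was 10.4 ± 3.40 CPM at 27 weeks and 40.6 ± 10.4 CPM at 9 weeks (SD, n = 5 each), and its log2 change was -1.97 ± 0.23 with edgeR (SE; adjusted p = 3.17e-05). Rotenone fish gave 10.1 ± 2.17 CPM at 27 weeks and 46.5 ± 12.6 CPM at 9 weeks, giving -2.21 ± 0.23 in log2 units (SE; adjusted p = 2.20e-06 with edgeR). This gene was the largest of 1193 that fell, lay apart, averaged at least 10 CPM and were called in every fit.

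The largest of the 497 rises under the same conditions, Nfu_g_1_019655, was much larger with 1 library than without it. It stood at 576, 68.7, 66.1, 75.3 and 48.2 CPM in replicates 1 to 5 of 27 weeks, and at 35.5, 20.3, 21.9, 34.8 and 22.6 CPM in replicates 1 to 5 of 9 weeks. Every older brain lay above every younger one, as the choice of the gene required, and replicate 1 of 27 weeks lay far above the other 4. The log2 change was 2.63 ± 0.63 (SE; edgeR adjusted p = 0.00591) with all libraries and 1.26 without replicate 1 of 27 weeks. A call in each of the 10 fits without 1 library was a condition of the choice, not a check (edgeR adjusted p from 0.00340 to 0.0237). Without replicates 1 and 4 of 27 weeks together it was 1.17 (edgeR adjusted p = 0.0518). In rotenone fish it averaged 77.9 ± 52.3 CPM at 27 weeks and 22.7 ± 6.51 CPM at 9 weeks (SD, n = 5 each), giving 1.78 ± 0.61 in log2 units (SE; adjusted p = 0.0346 with edgeR).

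**Figure D3:**
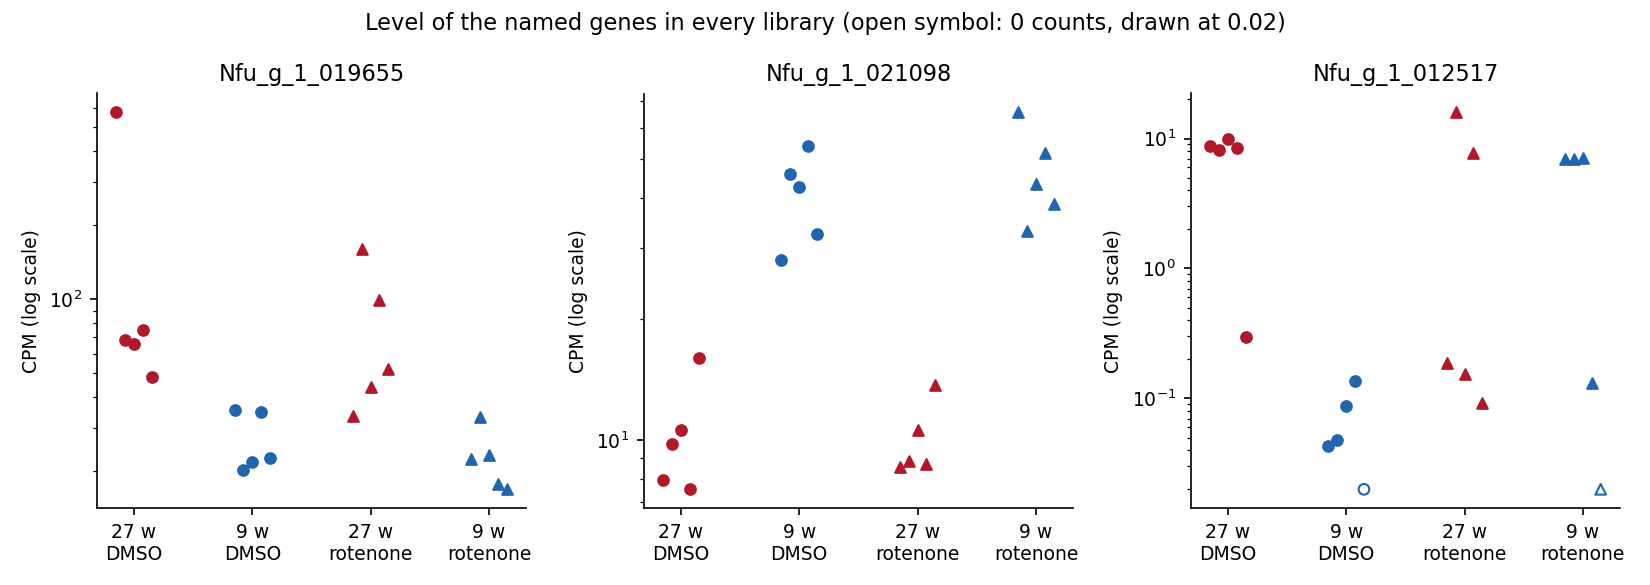
CPM (log scale) of the 3 named genes in every library, DMSO as circles and rotenone as triangles, 27 weeks in red and 9 weeks in blue. Nfu_g_1_021098 lies at 7.53 to 16.0 CPM in 27-week DMSO brains and up to 54.0 CPM in 9-week DMSO brains, whereas Nfu_g_1_012517 takes a high or a near-silent level in rotenone fish of both ages.

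A dominant library was common among the large changes. For each called gene the share of its summed CPM at the higher age that came from its highest library was taken. Of the 284 genes that rose over 2-fold, 98 had over 50% of that sum in 1 of the 5 older brains, and in 93 of the 98 this was replicate 1 of 27 weeks. Of the 160 genes that fell over 2-fold, 51 had over 50% in 1 younger brain, in 38 genes replicate 1 and in 13 genes replicate 4 of 9 weeks. Among all called genes the highest library held a median of 23.5% of the sum for rises and 21.8% for falls, close to an even split over 5 libraries.

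These genes were chosen by their values, so their levels are a description. Over the 93 genes the median level was 14.6 CPM in replicate 1 of 27 weeks and 1.63, 1.91, 2.11 and 1.31 CPM in replicates 2 to 5, against 0.963 to 1.22 CPM in the 9-week libraries. The other older brains thus lay slightly above the younger ones and replicate 1 far above all. In the fit without that library 91 of the 93 kept their direction, with a median log2 change of 0.64 in place of 1.88, and 15 were called. Over all genes 3787 of the 19538 tested were called in that fit. Among rotenone libraries the median of the 93 genes was highest in replicate 2 of 27 weeks, at 3.75 CPM. The 38 genes of the younger replicate 1 had medians of 0.606 to 1.72 CPM at 27 weeks and of 0.998 to 4.74 CPM in the other 9-week libraries, all below that of replicate 1. Without that library all 38 kept their direction, with a median log2 change of -1.21 in place of -3.04, and 3 were called. Over all genes 4582 of the 19540 tested were called in that fit.

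The genes without a dominant library were likewise chosen by their values. In 186 such genes that rose over 2-fold the median level was 6.23 CPM in replicate 1 of 27 weeks and 2.98 to 3.76 CPM in replicates 2 to 5, against 1.54 to 1.81 CPM in the 9-week libraries. Replicate 1 was again the highest of the older brains. Without it 140 of the 186 were called, and their median log2 change was 1.03 in place of 1.23. Over all genes 3787 of the 19538 tested were called in that fit. Of the 109 genes that fell over 2-fold without a dominant library, 94 were called without replicate 1 of 9 weeks. Over all genes 4582 of the 19540 tested were called in that fit. Both sets had been chosen as called in a fit that shares the remaining libraries, so 140 and 94 are no check. The number of genes called higher with a change over 2-fold was 120 without replicate 1 of 27 weeks, against 284 with it, and the number called lower was 128, against 160.

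**Figure D4:**
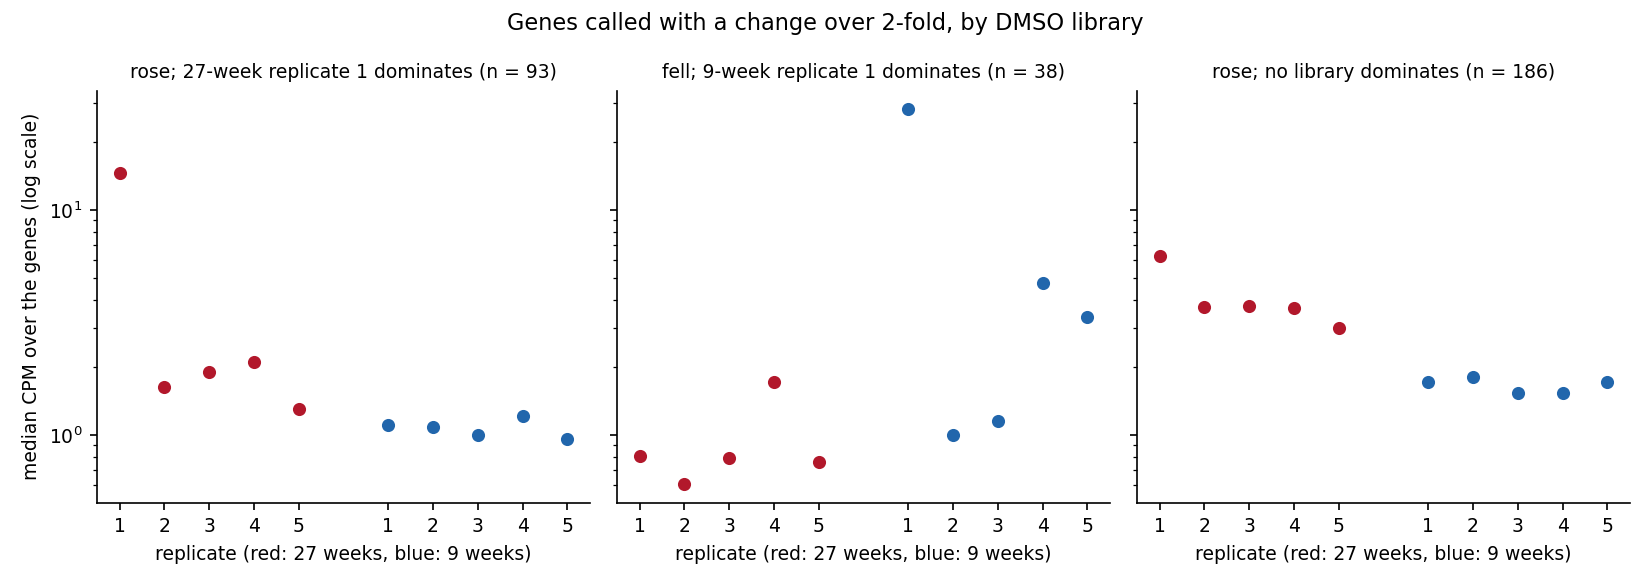
Median CPM (log scale) in each DMSO library over 3 sets of genes called with a change over 2-fold, 27 weeks in red and 9 weeks in blue. The 93 genes of the left panel stand at 14.6 CPM in replicate 1 of 27 weeks, while the other libraries reach 2.11 CPM at most, and the 186 genes of the right panel stand at 2.98 to 6.23 CPM in the 27-week libraries.

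No change of the spread between libraries with age could be shown in DMSO fish. The SD of log2 CPM over 5 libraries had a median of 0.194 at 27 weeks and 0.177 at 9 weeks, and was larger at 27 weeks in 55.2% of tested genes. The median log2 ratio of the SDs was 0.10 ± 0.22 (jackknife SE over libraries), so a change of this size lay well within its error. A common biological coefficient of variation fitted to each age alone was 0.254 at 27 weeks and 0.233 at 9 weeks. The slight excess was alike at all levels, with median ratios of 1.03 to 1.11 in the 10 level deciles, and at all lengths, with 1.06 to 1.08 in the length tertiles. An SD over 2-fold larger at 27 weeks was found for 2804 genes (14.4% of those tested), and one over 2-fold larger at 9 weeks for 1862 genes (9.57%). With 5 libraries per age such ratios also arise in many genes of equal spread, so these counts are not counts of genes with changed spread.

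The size of this excess depended on single libraries of either age. Replicate 1 of 27 weeks was the library farthest from the group median in 1474 of the 2804 genes, above that median in 983 and below it in 491, and was farthest in 33.4% of all tested genes. Without it the median log2 ratio of SDs was -0.06, after allowance for the smaller group. The ratio was 0.18 without replicate 1 of 9 weeks and 0.19 without replicate 4 of 9 weeks. Replicate 4 of 9 weeks was farthest in 678 (36.4%) of the 1862 genes with an SD over 2-fold larger at 9 weeks. Over all tested genes it was farthest in 25.4%, and replicate 1 of 9 weeks in 27.2%. Both sets of genes were chosen by their SDs, and leaving out a distant library lowers the SD of its age. Genes called higher had a median SD ratio of 1.22, against 1.07 for genes called lower and 1.06 for genes not called, and without replicate 1 of 27 weeks these ratios were 1.01, 0.956 and 0.959. Calls and SDs come from the same libraries and are not independent.

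Distances told the same in single libraries. The distance of a library to its group, the median absolute difference of log2 CPM from the mean of the other 4 libraries, was 0.205, 0.151, 0.126, 0.163 and 0.164 in replicates 1 to 5 of 27 weeks, and 0.164, 0.122, 0.134, 0.175 and 0.151 in replicates 1 to 5 of 9 weeks. The ages overlapped widely, with means of 0.162 ± 0.0285 at 27 weeks and 0.149 ± 0.0218 at 9 weeks (SD, n = 5 each; exact permutation p = 0.4603, adjusted over the 6 measures 0.5524). Without replicate 1 of 27 weeks the difference was -0.00806, and without replicate 4 of 9 weeks it was 0.0217. Pairs of libraries from different ages differed by a median of 0.262 (25 pairs), pairs within 27 weeks by 0.203 and pairs within 9 weeks by 0.182 (10 pairs each). The ranges overlapped, from 0.184 to 0.319 between ages, 0.143 to 0.264 within 27 weeks and 0.138 to 0.228 within 9 weeks. In rotenone fish the distance averaged 0.115 ± 0.0111 at 27 weeks and 0.153 ± 0.00894 at 9 weeks (SD, n = 5 each; exact permutation p = 0.0079, the smallest that 5 against 5 can give). The age effects on distance differed between DMSO and rotenone fish by 0.0502 (exact permutation of the treatment labels within each age, p = 0.0174, or 0.1045 adjusted over 6 such differences). Each distance is measured against the other libraries of its own group, so the 5 distances of a group are not independent. The permutation p-values of distances are therefore approximate.

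How far along the ageing change each DMSO brain lay was scored, after the data had been seen, on an axis that shares no library with it, the log2 change between 27 and 9 weeks in rotenone fish. A score is the slope of a library's deviation from the mean of the 10 DMSO libraries on that change. Noise in the axis lowers such a slope, so the gap between the ages does not measure how large the DMSO change is beside the rotenone change. Scored the other way, rotenone libraries on the DMSO axis had a gap of 0.831. Scores were 0.296, 0.528, 0.324, -0.00615 and 0.283 in replicates 1 to 5 of 27 weeks, and -0.0304, -0.370, -0.308, -0.613 and -0.103 in replicates 1 to 5 of 9 weeks. All older brains lay above all younger ones, though replicate 4 of 27 weeks and replicates 1 and 5 of 9 weeks lay close to the middle. The means were 0.285 ± 0.191 at 27 weeks and -0.285 ± 0.231 at 9 weeks (SD, n = 5 each), a gap of 0.570 (exact permutation p = 0.0079). Replicate 1 of 27 weeks, the most distant library of its age, had the third highest score of its group.

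**Figure D5:**
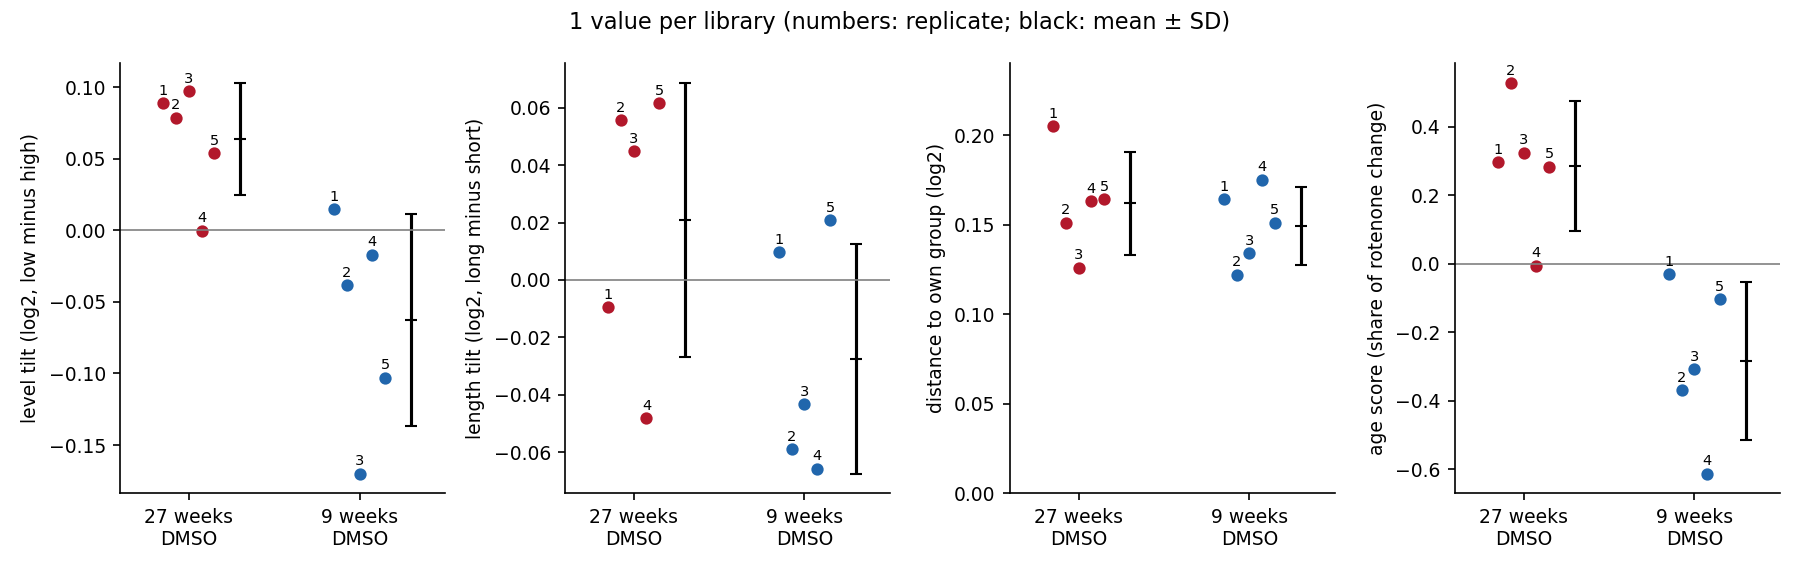
From left to right, level tilt, length tilt, distance to the own group (all log2) and age score of each DMSO library, 27 weeks left of 9 weeks, with mean ± SD in black and replicate numbers at the points. The age scores do not overlap between the ages, and the distances run from 0.126 to 0.205 at 27 weeks and from 0.122 to 0.175 at 9 weeks.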

How the data were processed

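Brain RNA libraries were made with Illumina's TruSeq RNA kit v2, per the labels. The submitters' processing notes name STAR 2.4.1d, featureCounts 1.4.6-p4 and bcl2fastq 1.8.4. Genome build, annotation and strand setting are unknown here, so reads of overlapping genes, antisense partners and near-identical copies cannot be told apart. The authors deposited raw counts per gene for 20 libraries and a table of RPKM. The deposited RPKM values were matched within 0.0011 by library totals recycled down the columns (100.00% of values), and by each library's own total in 3.48%, so they served only to recover gene lengths.

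Counts were fitted with edgeR 4.0.16 (R 4.3.3): TMM scaling, the default filter on low counts, quasi-likelihood tests over 4 groups of 5 libraries (common biological coefficient of variation 0.215) and Benjamini-Hochberg adjustment over 19452 genes. Calls needed an adjusted p below 0.05. Log2 CPM used a prior count of 2. Alternatives used DESeq2 1.42.0 and limma 3.58.1. Measures of single libraries were compared by two-sided exact permutation over 252 splits, for which 0.0079 is the smallest p. Fits were tested on simulated data. There the edgeR fit called 49.3% of 67 genes changed by 1.5-fold, 73.1% of 67 changed by 2-fold and 93.9% of 66 changed by 4-fold. Only these genes were changed among the 19452 simulated, far fewer than the 4570 called in the data. With so few changed genes the adjustment is stricter, so the rates may be too low for the data. Small changes may still go uncalled, to an extent that the simulation does not measure.

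Named genes are at most 2 identifiers per direction: the largest change among called genes with a mean of at least 10 CPM, no overlap and a call in every fit without 1 library, and the on/off gene with the highest median. Members, lists and rules were chosen with earlier results of these data known. Replicate numbers were given in accession order. Replicates of a group differed by more than counting noise, with a chi-square per degree of freedom of at least 11.5 in every pair.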

Additional observations from a re-analysis of the deposited data

Results flagged for a closer look

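Among 20 groups of 5 values checked for a library far from the rest, chance alone would give about 1 in 20. That rate does not hold for the named genes, which were chosen by their values in these same libraries. Genes with a count numbered 21427 in replicate 4 of 27 weeks, a library set off below the other 4 of its age. Nfu_g_1_019655 reached 576 CPM in replicate 1 of 27 weeks, far above the other older brains. Nfu_g_1_012517 stood at 0.296 CPM in replicate 5 of 27 weeks, far below the other older brains. The distance of a library to its group differed between 27 and 9 weeks by 0.0126 in DMSO fish and by -0.0376 in rotenone fish on the log2 scale. The first minus the second is 0.0502 (exact permutation p = 0.0174; adjusted over 6 measures, 0.1045). Distances within a group are not independent of each other, so this p is approximate.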

How the results depend on the processing

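No paired analysis was made, as the labels name no pairs of libraries. Calls numbered 4315 to 4986 under library totals, DESeq2 size factors, DESeq2, limma, no filter and a mean of at least 10 counts, and rises made up 39.6% to 48.7% of them. Library totals and DESeq2 size factors moved the median log2 change of all genes from 0.01 to 0.03. With the 10 DMSO libraries fitted alone 3056 genes were called, 1122 of them higher. Without 1 library the count was 3516 to 4631. Calls shared with the reported ones kept their direction in every setting. Each setting refits the same counts or a part of them, so this is a description and no check. The percentage of calls under 2-fold was 93.6 with limma, 89.0 with no filter, 92.4 with the DMSO libraries alone and 87.4 to 93.5 without 1 library. On/off genes numbered 0 with a limit of 0 counts, 1 with a limit of 10 counts (not Nfu_g_1_012517), 2 with a median of at least 0.5 CPM and 1 to 2 without 1 library. The length tilt was 0.0793 within level tertiles and 0.0380 to 0.0651 without 1 library. The level tilt was 0.0998 to 0.146 without 1 library. The distance difference was -0.00806 to 0.0257, the log2 ratio of SDs -0.06 to 0.21 and the difference in detected genes 28 to 101 without 1 library. Leaving out replicates 1 and 4 of 27 weeks together, chosen after seeing the data, gave 3770 calls, 92.5% under 2-fold, a length tilt of 0.0834, a distance difference of -0.0237 and a log2 ratio of SDs of -0.26. In that setting the log2 change of Nfu_g_1_019655 was 1.17. Nfu_g_1_012517 did not pass the filter of the fit with DMSO libraries alone. The cause of these shifts was not tested. Depth limits what can be said of genes below 0.142 CPM, which is 3 counts in the smallest DMSO library. The age score, the length tilt at single levels and the genes dominated by 1 library were also chosen after seeing the data.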
